A study of Danio rerio with 48 samples.

Results

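The miRNA repertoire of wild-type zebrafish larvae was described from 3 small RNA libraries of whole fish at 7 days post-fertilization (dpf), chosen by their labels as all the wild-type libraries among 15 miRNA libraries. The series has 48 libraries in all, of mRNA and miRNA, from mutants of the SMN complex, which assembles the small nuclear ribonucleoproteins of the spliceosome, and from wild-type fish. Each wild-type library came from the wild-type siblings of a different mutant family on the TAB-5 background, 1 each from the *gemin5*, *smn1* and *rnpc3* families (the gene *rnpc3* encodes a protein of the minor spliceosome). The rest of the miRNA libraries came from homozygous *smn1*, *gemin5*, *gemin4* and *gemin6* mutants on the same background and at the same age, 3 libraries each. The study's methods describe exposure to copper sulfate, which ablates hair cells, and a fin biopsy for genotyping for the larvae used in RNA-Seq; they do not say whether the miRNA larvae were treated in the same way. Family and library cannot be told apart, since each family has 1 wild-type library. For the mutants, nothing in the labels says that the 3 libraries of a genotype came from separate crosses. SDs and p-values therefore measure the spread between these libraries, which may be partly technical and in wild type includes differences between families.

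A miRNA is cut from a hairpin precursor, first by Drosha in the nucleus and then by Dicer in the cytoplasm, which leaves a short duplex of the hairpin's 5' arm (5p) and 3' arm (3p). Usually a single strand of that duplex, the guide, is kept by an Argonaute protein and directs it to mRNAs by pairing with its seed near the 5' end, while the other strand is mostly degraded. Many miRNAs are made in a few cell types only, so their levels in a whole animal depend both on how much of a tissue there is and on how much of the miRNA its cells hold, and these cannot be told apart in whole-larva RNA. Library preparation also captures miRNAs of different sequence with unequal efficiency, which was not measured here, so differences between names are differences in counts.

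The files listed 350 mature miRNA names. The wild-type totals were 9844959 counts in the *gemin5* family, 10549486 in the *smn1* family and 7781063 in the *rnpc3* family, against 8314137 to 49059515 counts (median 12328416) in the mutant libraries. Values are given below as CPM, the counts scaled so that each library sums to 1000000 over all names. A count of 0 allows a level of up to 0.30 CPM in the *gemin5* family, 0.28 CPM in the *smn1* family and 0.39 CPM in the *rnpc3* family, set at 3 counts for counting error only. No pair of wild-type libraries was close enough to be copies of 1 library, as their counts differed by a chi-square of 128 to 657 per degree of freedom. The *rnpc3* library stood apart. It was above all the other 14 libraries in 48 of the 202 names with a wild-type mean of 100 CPM or more and below all of them in 29, against 22 and 10 for the *gemin5* wild-type library, 20 and 0 for the *smn1* wild-type library, and 1 to 23 and 1 to 28 for the mutant libraries. These ranks are of plain CPM. The *rnpc3* library also had the largest of the scaling factors used later for testing (TMM), 1.14 against 0.89 to 1.13. Scaling by them would lower its values relative to the others, and the ranks were not repeated after it. The *gemin5* and *smn1* wild-type libraries are therefore also given on their own where the *rnpc3* library moved a result, but called names by list were not counted in this way.

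Most of the annotated miRNAs were found in wild-type larvae, but few of them made up most of the counts. Of the 350 names, 331 had a count in all 3 wild-type libraries, 13 in none and 6 in 1 or 2 of them. At least 1 CPM was reached in all 3 by 321 names, 10 CPM by 284, 100 CPM by 193, 1000 CPM by 74 and 10000 CPM by 19. The most abundant 8 names held 50% of the counts and 53 names held 90%. The 10 most abundant held 56.1% on average (55.8% in the *gemin5* family, 56.6% in the *smn1* family and 55.8% in the *rnpc3* family), within the 55.2 to 62.3% of the mutant libraries.

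**Figure D1:**
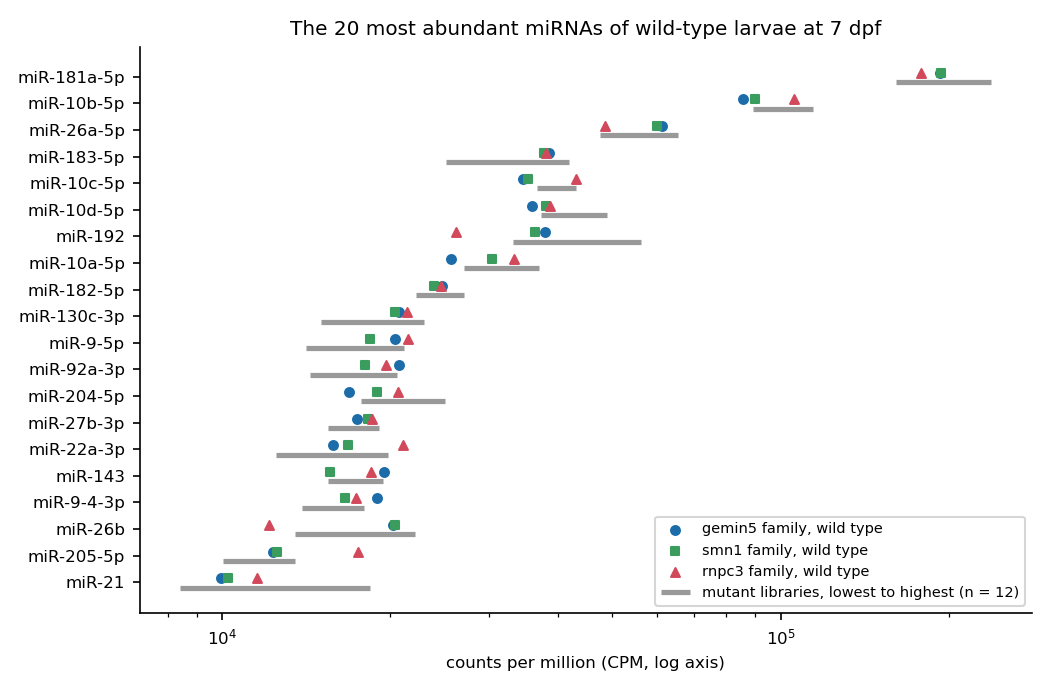
CPM on a log axis for the 20 names of highest mean in the 3 wild-type libraries (1 point per family), with a grey line from the lowest to the highest of the 12 mutant libraries. miR-181a-5p lies alone at the top, at 178562 CPM or more in every wild-type library. The points of the *rnpc3* family lie outside the mutant range for miR-192, miR-26b and miR-205-5p, among others. Those of the *gemin5* family lie outside it for the miR-10 names, miR-204-5p and miR-92a-3p, among others.

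miR-181a-5p was the most abundant name in all 3 wild-type libraries, with 193382 CPM in the *gemin5* family, 194184 CPM in the *smn1* family and 178562 CPM in the *rnpc3* family, a mean of 18.9% of all counts. miR-181 is best known from the vertebrate immune and nervous systems. The miR-10 miRNAs, whose genes lie within the Hox clusters that pattern the body axis, came next. miR-10b-5p had 85736, 90022 and 105580 CPM in the *gemin5*, *smn1* and *rnpc3* families, miR-10c-5p 34526, 35322 and 42946 CPM, miR-10d-5p 35947, 37976 and 38598 CPM, and miR-10a-5p 25654, 30456 and 33385 CPM. All 4 were highest in the *rnpc3* library, where they lay within the mutant range. The lowest mutant values were 89106, 36604, 37218 and 27163 CPM in the same order. The *gemin5* wild-type library was below these for all 4 names, and the *smn1* wild-type library for miR-10c-5p only. Added over letters and arms, names numbered miR-181 held 20.1% and names numbered miR-10 held 19.9% of wild-type counts, well above the miR-26 names with 7.43% and the miR-9 names with 4.52%.

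miR-26a-5p, a miRNA found in most vertebrate tissues, was the third in every library, with 61267, 60066 and 48465 CPM in the *gemin5*, *smn1* and *rnpc3* families. Its relative miR-26b had 20273, 20416 and 12143 CPM. Both were lowest in the *rnpc3* library. miR-183-5p, of the sensory cluster described below, averaged 38016 ± 401 CPM (SD, n = 3) and miR-182-5p of the same cluster 24465 ± 476 CPM, and these differed little between families. miR-192, a miRNA of intestinal epithelium, averaged 33477 ± 6295 CPM and had the lowest value, 26269 CPM, in the *rnpc3* library.

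The other names among the 20 most abundant averaged between 10578 and 20859 CPM. These were miR-130c-3p (20859 ± 513 CPM), miR-9-5p (20116 ± 1558 CPM) and miR-9-4-3p (17628 ± 1183 CPM) of neural progenitors, miR-92a-3p (19474 ± 1341 CPM) of the miR-17 to miR-92 clusters, miR-204-5p (18811 ± 1891 CPM) of the lens and the retinal pigment epithelium, miR-27b-3p (18101 ± 569 CPM), miR-22a-3p (17898 ± 2823 CPM), miR-143 (17844 ± 2022 CPM) of smooth muscle, miR-205-5p (14147 ± 2951 CPM) of the epidermis, and miR-21 (10578 ± 843 CPM). Neighbours in this order, with miR-26b between miR-9-4-3p and miR-205-5p, did not differ beyond their spread: down to miR-205-5p, each mean differed from the next by less than the larger of their SDs, and only miR-21 lay further below. The *gemin5*, *smn1* and *rnpc3* libraries shared 19 of their 20 most abundant names. let-7, which rises during late development in many animals, held 0.836% of counts over its 12 names.

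Tissue miRNAs were grouped into lists by the number in their name, 23 lists in all that covered 246 names and 94.1% of wild-type counts. Every list had counts in all 3 libraries, among them those of muscle, gut, liver, pancreas, blood, vessels, nervous system, sense organs, skin and cartilage. As 331 of the 350 names had a count in all 3, this is no check of the tissues sampled. The lists differ in their number of names, and a list's sum is led by its most abundant members, so sums are compared between libraries rather than between tissues.

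**Figure D2:**
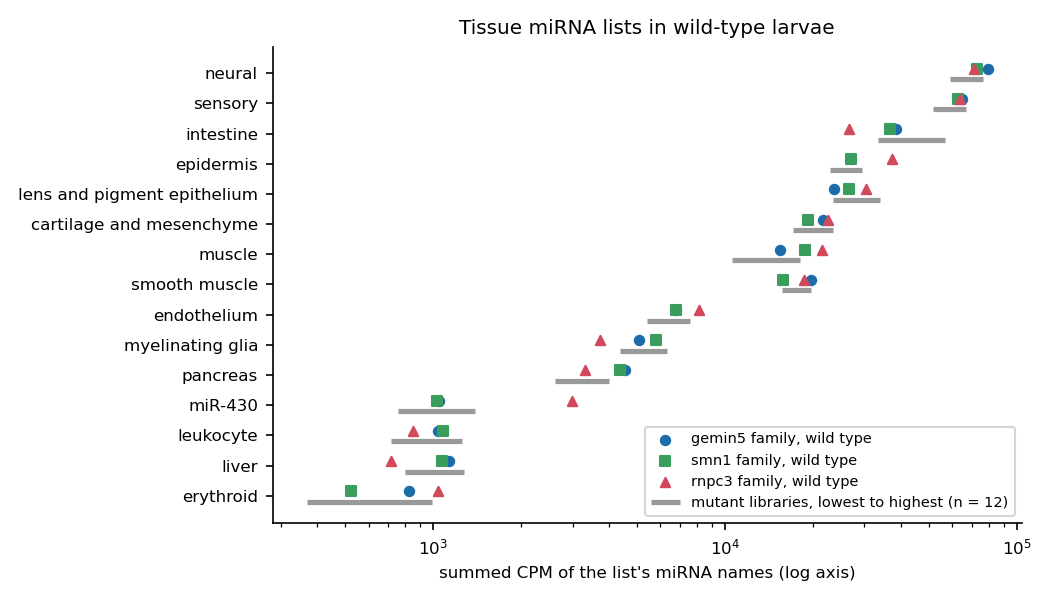
Summed CPM of 15 tissue lists on a log axis, with 1 point for each wild-type family and a grey line from the lowest to the highest of the 12 mutant libraries. The wild-type points of the sensory list nearly coincide, at 62922 to 64550 CPM, while the *rnpc3* family lies to the right of the others for miR-430 and to the left for intestine, liver and myelinating glia.

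Neural and sensory miRNAs had high counts, which do not measure the amount of these tissues. The neural list summed to 79401, 72871 and 70933 CPM in the *gemin5*, *smn1* and *rnpc3* families (7.44% of counts on average), against 59146 to 76470 CPM in the mutant libraries. Apart from the miR-9 names that lead it, miR-128-3p, a miRNA of differentiated neurons, had 11369, 9560 and 7299 CPM, and miR-124-3p, which marks neurons throughout the animal kingdom, had 5035, 5379 and 4806 CPM. All 25 neural names reached 10 CPM in each wild-type library. The list of myelinating glia was led by miR-338 (3385, 3767 and 1744 CPM) and miR-219-5p (1637, 2004 and 1946 CPM), both miRNAs of oligodendrocyte maturation. miR-338 was lower in the *rnpc3* library than in any other of the 15, whereas miR-219-5p was not.

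miR-183, miR-96 and miR-182 are made in hair cells, photoreceptors and sensory neurons, and miR-96 is needed for hearing in mice and humans. Their list had the smallest spread of all, with 64550, 62922 and 63983 CPM in the *gemin5*, *smn1* and *rnpc3* families, a highest-to-lowest ratio of 1.03. The mutant libraries ranged from 51337 to 66685 CPM. In a RefSeq gene table of a later assembly (GRCz12tu), the 3 genes are single-copy and neighbours within 10 kb. Even so miR-96, with both arms added, had only 1257 ± 33.5 CPM, against 38038 ± 402 CPM for miR-183 and 24523 ± 470 CPM for miR-182. The list of lens and pigment epithelium was led by miR-204-5p and miR-184, an abundant lens miRNA, which had 6775, 7677 and 9637 CPM.

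Most miRNAs of the digestive organs were lower in the *rnpc3* library than in the other wild-type libraries, with 3 of 3 intestinal names, 5 of 6 pancreatic names and the liver name lowest there. Over all 290 names with a wild-type mean of 10 CPM or more, 110 were lowest there. The intestinal list summed to 38343, 36672 and 26475 CPM in the *gemin5*, *smn1* and *rnpc3* families, against 33439 to 56535 CPM in the mutants, and nearly all of it was miR-192. miR-194a, whose gene is the neighbour of the miR-192 gene, had 322, 244 and 124 CPM. miR-122, the main miRNA of hepatocytes and the sole member of the liver list, had 1135, 1068 and 715 CPM, against 797 to 1275 CPM in the mutants. In the pancreatic list, miR-216b of the exocrine pancreas had 2622, 2521 and 1750 CPM, and its neighbour miR-216a had 675, 673 and 443 CPM, whereas miR-375 of the islets had 778, 655 and 800 CPM. For the intestinal list and miR-122 the *rnpc3* wild-type value was below all the other 14 libraries. For miR-216b it was not, as the mutants ranged from 1192 to 2057 CPM. The pancreatic list summed to 4524, 4348 and 3322 CPM, against 2608 to 4011 CPM in the mutants. Its *rnpc3* value was thus within the mutant range, and the *gemin5* and *smn1* wild-type values were above it.

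The summed muscle and skin lists were highest in the *rnpc3* library, as were 10 of 12 muscle and 13 of 16 epidermal names. Over all 290 names with a wild-type mean of 10 CPM or more, 132 were highest there. The muscle list summed to 15431, 18717 and 21427 CPM in the *gemin5*, *smn1* and *rnpc3* families, against 10534 to 18022 CPM in the mutants. miR-133a-3p had 6633, 7816 and 8338 CPM and miR-133b-3p 4139, 5589 and 6272 CPM, both miRNAs of skeletal and cardiac muscle. miR-1, which is encoded beside miR-133a and is a classic marker of muscle, had only 467, 541 and 496 CPM and ranked 121st, and was not highest in the *rnpc3* library. The epidermal list summed to 26924, 27081 and 37190 CPM, against 22894 to 29407 CPM in the mutants. Its leading names were miR-205-5p, with 12332, 12557 and 17551 CPM, and miR-203b-3p, which promotes keratinocyte differentiation, with 4498, 4240 and 6627 CPM. Not all epidermal names followed. The epithelial miRNA miR-200a-3p had 1088, 1156 and 964 CPM, below all the other 14 libraries in the *rnpc3* family, and miR-141-3p had 918, 973 and 820 CPM. For both summed lists the *rnpc3* value was above all the other 14 libraries in plain CPM, which was not checked after TMM scaling.

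Among mesenchymal and vascular miRNAs, miR-143 averaged 17844 CPM, as given above, and miR-145-5p, its partner in smooth muscle, 205 ± 28.2 CPM. The list of cartilage and mesenchyme was led by miR-199-3p, with 8261 ± 482 CPM, and miR-140-3p of cartilage, with 4978 ± 550 CPM. For endothelium, miR-126a-5p and miR-126b-5p were listed at the same 3134, 3122 and 3812 CPM, since their counts were equal in every library (within 1 count). Reads shared between these 2 names could not be told apart by the counting, and they are better read as 1 miRNA. Where shared reads were divided between the names, the level of that miRNA is the sum of both values.

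Blood cell miRNAs had low counts. The erythroid miRNA miR-144-5p had 219, 134 and 475 CPM in the *gemin5*, *smn1* and *rnpc3* families, and miR-451, which matures by Argonaute cutting without Dicer, had 351, 229 and 207 CPM. The genes are neighbours, yet miR-144-5p was highest and miR-451 lowest in the *rnpc3* library. In the leukocyte list, miR-146a, which dampens inflammatory signalling, averaged 317 ± 67.5 CPM, and miR-150 of mature lymphocytes had 301, 325 and 117 CPM. miR-223 of neutrophils averaged 17.1 CPM and miR-155 of activated immune cells 0.49 CPM, the lowest of the list.

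miR-430, which clears maternal mRNAs from the early zebrafish embryo, was still counted at 7 dpf. The list summed to 1043, 1030 and 2990 CPM in the *gemin5*, *smn1* and *rnpc3* families, against 758 to 1393 CPM in the mutants. miR-430b-3p had 324, 384 and 1588 CPM and miR-430a-3p 401, 314 and 899 CPM. Both were higher in the *rnpc3* wild-type library than in any other library, and the *gemin5* and *smn1* wild-type values were within the mutant range of 218 to 705 CPM for miR-430b-3p and of 216 to 419 CPM for miR-430a-3p. miR-430 genes are present in many copies, and the names of single copies (such as miR-430a-11-5p and miR-430a-12-5p) had nearly equal values, so their reads may have been divided by the counting.

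The sums of 5 further lists differed by less than 1.2-fold between families. Of the miR-17 to miR-92 list, miR-92a-3p and miR-92b-3p (9125 ± 1612 CPM) led, and of the miR-15 and miR-16 list miR-15b-5p (3697 ± 462 CPM) and miR-16b (2360 ± 137 CPM). Of let-7, let-7a (3836 ± 355 CPM) and let-7g (1501 ± 102 CPM) led. The list of miR-99, miR-100 and miR-125, which lie beside let-7 genes, was led by miR-100-5p (8615 ± 302 CPM) and miR-125b-5p (6842 ± 499 CPM). In the list of miR-23, miR-24 and miR-27, miR-27c-3p (1729 ± 195 CPM) followed miR-27b-3p, and miR-27c-5p had 0 counts in all 15 libraries, the only name of any list with 0 in every wild-type library. The fish miRNAs miR-731 (275, 188 and 154 CPM) and miR-462 (47.9, 37.1 and 29.6 CPM), which respond to interferon in other fish, were both lowest in the *rnpc3* family.

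Arm balance was measured in 107 pairs with both arms listed, all with 10 or more counts, both arms together, in each wild-type library. For 109 names no arm was given, and these were left out. The 5p arm held over 50% of the pair's counts in all 3 wild-type libraries in 51 pairs and the 3p arm in 54, so neither arm prevailed among pairs. By counts the 5p arm did, with 74.5, 75.4 and 74.9% of all paired counts in the *gemin5*, *smn1* and *rnpc3* families, since miR-181a and the miR-10 miRNAs are 5p miRNAs. Most pairs were one-sided. An arm held over 90% in all 3 libraries in 70 pairs (35 for 5p and 35 for 3p) and over 99% in 34 pairs (17 for each arm), and the minor arm's median share was 2.63%.

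**Figure D3:**
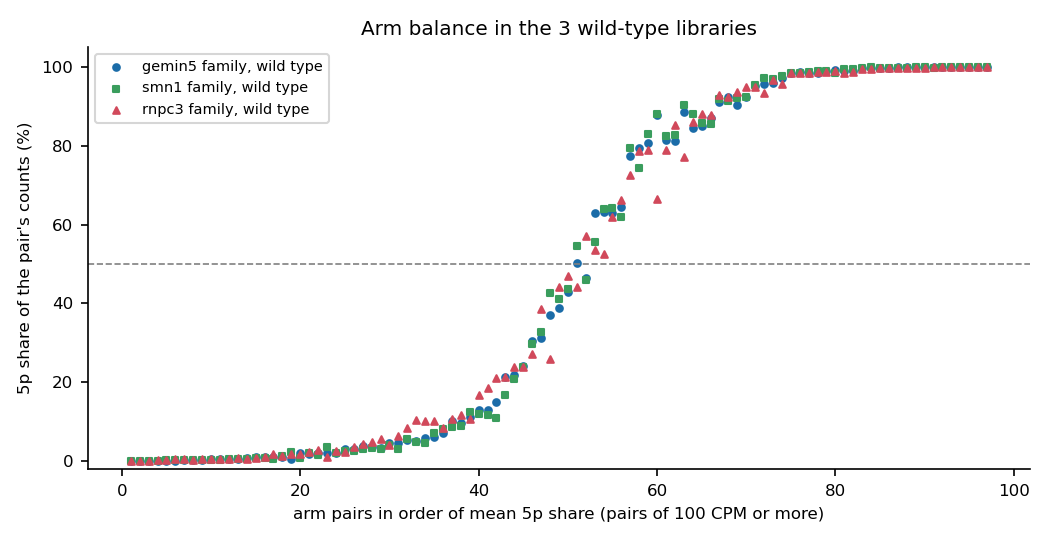
5p share of the pair's counts (%) in the 3 wild-type libraries, for the 97 pairs with a mean of 100 CPM or more in order of their mean 5p share; the dashed line marks 50%. Pairs gather at both ends of the axis, where the points of the 3 families nearly coincide, and the points lie further apart in the middle.

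Of the 10 most abundant pairs, 8 had a 5p share over 98% in every wild-type library. The 5p share was 98.3, 98.7 and 98.5% for miR-181a, 99.9% in each library for miR-10b, miR-26a and miR-183, and 99.7, 99.7 and 99.6% for miR-10d in the *gemin5*, *smn1* and *rnpc3* families. It averaged 99.98% for miR-10c and lay between 99.7 and 99.8% for both miR-10a and miR-182. miR-130c was a 3p miRNA, with a 5p share of 3.10, 2.46 and 2.32%. miR-9 was the exception among them, as both of its arms were abundant: the 5p share was 43.0% (95% Wilson interval 42.8 to 43.1%) in the *gemin5* family, 43.5% (43.4 to 43.7%) in the *smn1* family and 46.8% (46.7 to 47.0%) in the *rnpc3* family. Such intervals cover counting error only, and the difference between families was larger than they allow.

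A 5p share between 40 and 60% in every wild-type library was found in 4 pairs, which were miR-9, miR-30e, miR-144 and the scarce miR-2187 (19.3 CPM for both arms). In miR-30e and miR-144 the arm above 50% was not the same in all families. miR-30e had a 5p share of 50.3, 54.5 and 44.2% in the *gemin5*, *smn1* and *rnpc3* families, against 47.7 to 57.7% in the mutants. Its share in the *gemin5* family was so near 50% that neither arm clearly led there. miR-144 had a 5p share of 46.4, 45.9 and 57.2%, against 36.9 to 53.5% in the mutants. In both cases the *rnpc3* library lay on the other side of 50% and outside the mutant range, and the *gemin5* and *smn1* wild-type libraries lay within that range.

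The 5p share was otherwise stable between families, with a median range of 1.2 percentage points over the 107 pairs, and 10 pairs ranged over more than 10 points. The widest range among pairs of 100 CPM or more was that of miR-459, singled out after its values were seen. Its 5p share was 87.8 and 87.9% in the *gemin5* and *smn1* families and 66.5% in the *rnpc3* family, against 85.0% or more in every mutant library. Counting error did not reach so far, as the 95% Wilson interval in the *rnpc3* family was 64.5 to 68.4%.

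The 3 wild-type libraries, each of another family, differed more from each other than the 3 libraries of each mutant did. Over 285 names with a mean of 10 CPM or more, the median ratio of the highest to the lowest wild-type library was 1.32, against 1.15 for *smn1*, 1.19 for *gemin5*, 1.13 for *gemin4* and 1.18 for *gemin6* mutants. The ratio was over 2 for 10.9% of names in wild type, against 0.35 to 2.46% in the mutants. Most of that spread came with the *rnpc3* library. The median absolute log2 ratio was 0.15 between the *gemin5* and *smn1* wild-type libraries, with 2 of 290 names over 2-fold apart, but 0.30 between *gemin5* and *rnpc3* (21 names) and 0.29 between *smn1* and *rnpc3* (27 names). With the *rnpc3* library left out, the median ratio was 1.11, against 1.22 without the *gemin5* and 1.23 without the *smn1* wild-type library. These ratios are over 2 libraries, which makes them smaller by construction, so they cannot be set beside those over 3.

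**Figure D4:**
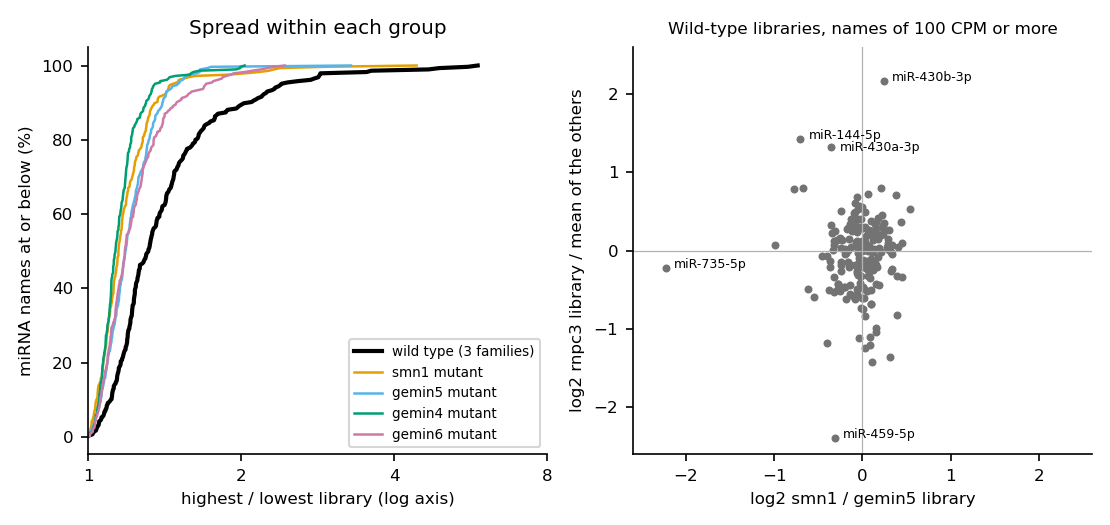
Left, share of 285 miRNA names (%) whose ratio of the highest to the lowest library of a group is at or below the value on the log axis, for the wild type and the 4 mutants; the wild-type curve lies to the right of the others. Right, log2 ratio of the *rnpc3* wild-type library to the mean of the others against log2 ratio of the *smn1* to the *gemin5* wild-type library, for 202 names of 100 CPM or more (1 point each); the points stretch further along the vertical axis, and the 5 names of widest spread are labelled.

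Among the 202 names with a wild-type mean of 100 CPM or more, 17 were over 2-fold apart between families, and in 16 of these the *rnpc3* library was the highest (5 names) or the lowest (11 names). miR-459-5p had the widest spread, with 1099, 884 and 188 CPM in the *gemin5*, *smn1* and *rnpc3* families, against 618 to 1218 CPM in the mutants. miR-430b-3p followed, then miR-735-5p, which had 251, 53.7 and 131 CPM. This name is 18 nucleotides long, and its mutant range of 41.1 to 318 CPM was wide as well. miR-144-5p and miR-430a-3p, given above, were the other 2 of the 5 widest.

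The steadiest names were let-7d-5p, with 892, 888 and 888 CPM in the *gemin5*, *smn1* and *rnpc3* families, and miR-183-5p, let-7c-5p, miR-99 and miR-182-5p, with highest-to-lowest ratios between 1.02 and 1.04. let-7c-5p had 995, 1017 and 1014 CPM and miR-99 had 3689, 3591 and 3694 CPM. In all, 61 of the 202 names were less than 1.2-fold apart.

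To see where the wild-type repertoire differed from that of the mutants, the wild-type mean was set against the mean of the 4 mutant groups in edgeR (quasi-likelihood F test), and p-values were adjusted over all 327 names tested by the Benjamini-Hochberg method. Of these, 73 (22.3%) had an adjusted p below 0.05, of which 52 (15.9%) were higher and 21 (6.42%) lower in wild type. The test took a single estimate of spread per name over all groups. The median SD of log2 CPM (285 names) was 0.20 in wild type, whose libraries came from different families, against 0.09 to 0.13 in the mutant groups. The p-values of this contrast may therefore be too small. Among the miRNA libraries the *rnpc3* family had no mutants, and the *gemin4* and *gemin6* families had no wild type. Genotype and family therefore cannot be told apart in this contrast, and called names may differ between families. With DESeq2's size factors in the same test the split was 43 higher and 32 lower, so the split of calls between higher and lower depended on the scaling. Only 38 names were called without the *rnpc3* library, 29 of them among the 73, and only 9 in the *gemin5* and *smn1* families alone. In that run both wild-type libraries formed a single group against the mean of the mutants of both families, with no term for family. Those 9 were all higher in wild type, 0 were lower, and 3 of them were among the 73.

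Minor arms made up most of the names that were higher in wild type. Of 119 minor arms tested, 40 were higher and 0 lower in wild type at an adjusted p below 0.05 in edgeR's test, with a median log2 difference of 0.23, against 10 higher and 11 lower of 111 major arms (median -0.02) and 2 higher and 10 lower of 97 names without a partner (median -0.10). Over all names the median was 0.05. The 119 are names and not all separate miRNAs, as let-7c-3p and let-7d-3p, both minor arms, had the same CPM in each wild-type library. Without the *rnpc3* library, 15 minor arms were higher and 0 lower, and their median log2 difference fell to 0.10 (major arms -0.06). In the *gemin5* and *smn1* families alone 2 were higher and 0 lower, with a median of 0.03 (major arms -0.07).

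The 3 called names with the largest rise in wild type were minor arms. miR-7146-5p had 1.12, 0.57 and 1.54 CPM in the *gemin5*, *smn1* and *rnpc3* families, against 0.12 to 0.98 CPM (median 0.48) in the mutants, a log2 difference of 1.05 ± 0.30 (SE; adjusted p = 0.026, edgeR). It rests on few reads, as 1 count equals 0.10, 0.09 and 0.13 CPM in these wild-type libraries, and the lowest mutant value was 1 count. miR-725-5p had 3.86, 9.01 and 10.8 CPM, against 1.79 to 7.49 CPM (median 2.93) in the mutants, a log2 difference of 1.03 ± 0.23 (adjusted p = 0.0078, edgeR). miR-133b-5p had 46.3, 31.1 and 112 CPM, against 13.2 to 49.5 CPM (median 29.1) in the mutants, a log2 difference of 0.97 ± 0.26 (adjusted p = 0.020, edgeR). Only the *rnpc3* library lay clear of the mutants for miR-133b-5p. None of the 3 was called without the *rnpc3* library, where the log2 differences were 0.73 for miR-7146-5p, 0.77 for miR-725-5p and 0.28 for miR-133b-5p, nor in the *gemin5* and *smn1* families alone, where they were 0.15, 0.16 and 0.07. miR-7146-5p was also not called without the *gemin5* wild-type library (0.98) or by DESeq2 (1.07), with a log2 difference about as large.

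The 3 called names with the largest fall in wild type were miR-731, which responds to interferon in other fish, and miR-146b and miR-146a, which dampen inflammatory signalling. miR-731 had 275, 188 and 154 CPM in the *gemin5*, *smn1* and *rnpc3* families, against 188 to 493 CPM (median 323) in the mutants, a log2 difference of -0.70 ± 0.18 (SE; adjusted p = 0.019, edgeR). miR-146b had 24.6, 32.6 and 28.7 CPM, against 21.9 to 57.9 CPM (median 45.0), a log2 difference of -0.56 ± 0.18 (adjusted p = 0.041, edgeR). miR-146a had 288, 394 and 269 CPM, against 253 to 742 CPM (median 410), a log2 difference of -0.55 ± 0.14 (adjusted p = 0.019, edgeR). The groups overlapped for all 3. The calls were lost without the *rnpc3* library, where the log2 differences were -0.55 for miR-731, -0.57 for miR-146b and -0.45 for miR-146a. They were also lost in the *gemin5* and *smn1* families alone, where the difference was small for miR-731 (-0.14) and miR-146b (-0.09) but not for miR-146a (-0.60). Without the *gemin5* wild-type library the calls of miR-146a and miR-146b were lost as well (log2 differences of -0.49 and -0.48), and that of miR-146b was also lost when any of 5 mutant libraries was left out.

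Counts of called names by list (edgeR, adjusted p below 0.05) are read against the 15.9% higher and 6.42% lower over all names, with a median of 0.05. They come from the run with all libraries. Calls were not counted by list without the *rnpc3* library or in the *gemin5* and *smn1* families alone. Of all minor arms tested, 40 of 119 were higher, and the number of minor arms in each list was not taken into account. The counts are therefore not read as results about tissues. In the epidermal list 5 of 16 names were higher and 1 lower in wild type (median log2 difference 0.17), in the neural list 6 of 25 were higher and 1 lower (median 0.07), and in the miR-17 to miR-92 list 9 of 28 were higher and 0 lower (median 0.13). Of the miR-430 list 2 of 15 names were higher and 0 lower (median 0.14), and these were miR-430a-3p and miR-430b-3p, in which only the *rnpc3* library lay above the mutants. Both names of the fish pair, miR-731 and miR-462, were lower (median -0.61). Of the miR-10 and miR-196 names of the Hox clusters, 1 of 14 was higher and 3 were lower (median 0.11). In the leukocyte list 3 of 7 were higher and 2 lower (median 0.30). The 3 higher leukocyte names were arms of miR-142a and miR-142b, miRNAs of blood cells, of which miR-142a-3p had 94.7, 71.5 and 97.3 CPM in the *gemin5*, *smn1* and *rnpc3* families, against 28.1 to 79.4 CPM in the mutants, so that the *smn1* wild-type library overlapped with them. Muscle had 1 of 12 names higher and 0 lower, and the lists of smooth muscle, endothelium, erythroid cells and liver had no called name among 3, 4, 3 and 1 tested.

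The arm balance itself was then compared, by an exact two-sided permutation test of the mean logit 5p share over all 455 choices of 3 of the 15 libraries, in the 106 pairs with 10 or more counts in every library. No pair (0%) had an adjusted p below 0.05, while 32 pairs had an unadjusted p below 0.05. The test treats all 15 libraries as exchangeable, although the mutant libraries are replicates within genotypes, so its p-values may be too small. After adjustment, a call also needed several pairs at or near the smallest p that the choices allow. The absence of calls therefore does not show that arm balance was equal. In 4 pairs (3.77%) the wild-type and mutant ranges did not overlap, which gave the smallest p the choices allow (0.0022 by the exact permutation test, adjusted p = 0.058). These were miR-124, with a 5p share of 2.06 ± 0.25% in wild type and 1.41 ± 0.09% in the mutants (SD), miR-135b with 81.0 ± 1.8% and 85.3 ± 1.3%, miR-200b with 2.26 ± 0.31% and 1.22 ± 0.35%, and miR-96 with 95.1 ± 0.2% and 96.7 ± 0.4%. The minor arm had the larger mean share in wild type in all 4 of them. Over the 106 pairs its mean share was larger in wild type in 81, smaller in 24 and equal in 1. The median ratio of its share in wild type to that in the mutants was 1.15, and without the *rnpc3* library it was 1.11, with a larger share in 74 pairs. When the second library of *gemin5* mutants was left out, 7 pairs were called.

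**Figure D5:**
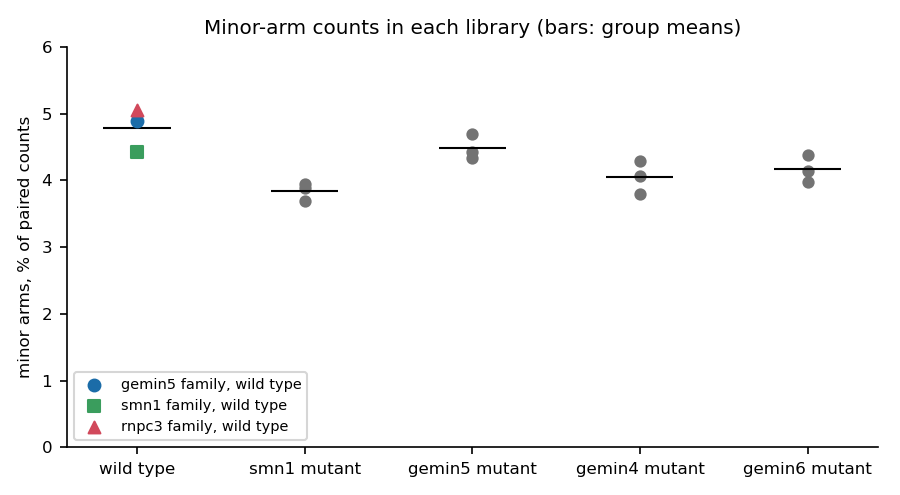
Counts of minor arms as a share of all paired counts (%) in each library, over 97 pairs of 100 CPM or more, with the wild type on the left, 1 point per library and a bar at the mean of each group. The wild-type libraries lie between 4.43 and 5.06% and the mutant libraries between 3.69 and 4.70%, and the *gemin5* mutants come closest to wild type.

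Added over 97 pairs of 100 CPM or more, minor arms held 4.89, 4.43 and 5.06% of paired counts in the *gemin5*, *smn1* and *rnpc3* wild-type libraries, against 3.69 to 4.70% in the mutants. The *gemin5* wild-type library was above its own mutants (4.33 to 4.70%), and the *smn1* wild-type library was above its own (3.69 to 3.95%). The *smn1* wild-type value, however, was within the range of the *gemin5* mutants. Total counts were 7781063 to 10549486 in wild type, below those of 9 of the 12 mutant libraries, and their part in the difference was not tested.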

How the data were processed

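The small RNA reads were 1 library per sample. The submitters' processing notes name Trimmomatic 0.36, STAR 2.5.4a, HISAT2 2.2.1.0, RSEM and the danRer10 build, with no role or order, and how reads were assigned to mature miRNAs is not given in the sources used here. The deposited values used are the authors' RSEM expected counts per miRNA name, estimates that divide shared reads among names. The deposited TPM served only as an alternative, as the authors' effective length was 0, and TPM 0, for 7 names of 18 or 20 nucleotides (4 of them with counts in all wild-type libraries).

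CPM are expected counts over the library's total. Python 3.11.15 (numpy 2.4.6, pandas 2.3.3, scipy 1.17.1) and R 4.3.3 (edgeR 4.0.16, DESeq2 1.42.0) were used. For edgeR, expected counts were rounded, filtered by filterByExpr, scaled by TMM and fitted in 5 groups, and the wild type was set against the mean of the 4 mutants, with a threshold of 0.05 on the Benjamini-Hochberg adjusted p-value. SEs are the absolute log2 difference over the square root of F. For the arm test 0.5 was added to each arm, and a pseudocount of 0.1 CPM was used for log2 ratios between wild-type libraries. Arms of genes with several loci were added. An arm is called minor where it held the smaller mean share in wild type, or, in the arm test and its ratios, in the mutants. Runs of both tests on simulated data checked the code only, not how well the tests find differences of the size seen here. Gene neighbours were taken from RefSeq (GRCz12tu) for names only, with 215 of 217 miRNAs matched.

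The names given are the 20 most abundant, the 2 most abundant of each list, the 10 most abundant pairs and those near balance, the 5 widest and 5 steadiest names at 100 CPM, and the 3 called names of largest change each way. Others were named after their values were seen. The miRNAs and lists were chosen with earlier results of these data known. Alternatives were DESeq2, its size factors (RLE), no filter, TMM-scaled CPM, other minimums, thinning to the smallest total, the families of *gemin5* and *smn1* alone, and leaving out each library.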

Additional observations from a re-analysis of the deposited data

How the results depend on the processing

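No paired analysis was possible by replicate number because the wild-type libraries all carry the number 1, so no replicate block could be fitted. A block by family was not fitted, although the *gemin5* and *smn1* families each have 1 wild-type and 3 mutant libraries. Instead, the wild type of both families was set as a single group against the mutants of the same families. That run had no term for family, so its calls are not differences within families. The 73 names called between wild type and mutants became 38 to 82 with a single library left out, the lowest without the *rnpc3* library, and 9 in the *gemin5* and *smn1* families alone (2 against 6 libraries, fewer samples). By DESeq2 77 names were called, 63 of them among the 73. The 0 pairs called for arm balance became 0 to 7. The 10 most abundant names held 48.3% of counts with miR-181a-5p left out of the totals and 53.6% in deposited TPM, an alternative chosen after seeing the data. At a dominance of over 90%, 35 of the 54 pairs of the 3p arm remained. The median highest-to-lowest ratio of 1.32 became 1.11 to 1.23 with a wild-type library left out, though a ratio over 2 libraries is smaller by construction. The TMM factors of the *gemin5*, *smn1* and *rnpc3* wild-type libraries were all above 1 (1.08, 1.08 and 1.14), so TMM scaling lowers every list sum. The fall was over 1 SD for 9 of 23 lists, which depends also on how small the SD of a list is. Of 114 values of the 6 named log2 differences under alternatives, 93 kept their call, 21 lost it (6 without the *rnpc3* library, 6 in the *gemin5* and *smn1* families alone) and 0 changed sign.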
